A study of Mus musculus with 4 samples.

Results

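Macrophages are the main resident immune cells of the testis, and 35 genes that mark them were followed here across testes that lack the receptor for luteinizing hormone and testes that have it. The set was put together from general knowledge, with earlier results of these data known. It covers pan-macrophage genes, resident scavenger receptors, the complement C1q chains, Fc receptors with their adaptors, and phagocyte integrin and oxidase genes. Each of the 35 was measured by 1 probe set that names no other gene, out of 19938 genes tested. The mice were male, either Lhcgr KO (2 samples) or control WT (2 samples), and all of them, controls included, had received busulfan at 44 mg/kg and were killed 4 weeks later. Busulfan is an alkylating drug that depletes germ cells. The extent of germ cell loss was not measured here, and no untreated testis was analysed. Whole-testis RNA was read on 1-colour Affymetrix whole-transcript arrays. Age, strain, the construction of the knockout allele and any pooling of animals are not stated in the sources used here, so the p-values describe the spread between these samples, which could be technical.

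Macrophages live in the testis interstitium in close contact with Leydig cells, the producers of testosterone, and around the seminiferous tubules. They take up debris and dying cells, carry scavenger receptors and Fc receptors for antibody-coated particles, and secrete the C1q chains that start the classical complement pathway. Growth and survival of macrophages depend on the receptor encoded by Csf1r, and their gene programme on the transcription factor PU.1, encoded by Spi1, which binds purine-rich DNA with a GGAA core. Many myeloid promoters lack a TATA box and carry such purine-rich sites near the start of transcription.

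Promoter windows of 300 bases, from 250 before to 50 after the gene's start, were available from RefSeq on build GRCm38.p6 for 25 of the 35 genes. The motif GAGGAA, read on both strands, stood in a window of 15 of these 25 genes and of 6 of the 9 genes that fell in the KO testes. Among all 32851 windows, 28.3% held it, as did a window of 31.3% of all genes with an entry. The longer motif GAGGAAGT, which contains GAGGAA, was found for 2 of the 25 (Pf4 and C1qc), beside 3.69% of all genes with an entry. TTNCNNAA was found for 14, beside 44.1% of all genes, and TATAAA for 2, beside 15.7% of all genes. Of all windows, 3.20% held GAGGAAGT, 40.7% TTNCNNAA and 13.6% TATAAA. In Itgam, TTNCNNAA overlaps the GAGGAA match that lies after the start. Shown are the windows of Lyz2, the gene with the largest change, which holds no GAGGAA, and of 4 other genes that fell and hold it, with GAGGAA or its reverse complement TTCCTC in capitals. The Lyz2 window lies at chr10:117282223-117282522, minus strand, that of C1qb at chr4:136886151-136886450, minus strand, that of Trem2 at chr17:48346151-48346450, plus strand, that of Itgam at chr7:128062390-128062689, plus strand, and that of Cybb at chrX:9469275-9469574, minus strand.
Lyz2 promoter: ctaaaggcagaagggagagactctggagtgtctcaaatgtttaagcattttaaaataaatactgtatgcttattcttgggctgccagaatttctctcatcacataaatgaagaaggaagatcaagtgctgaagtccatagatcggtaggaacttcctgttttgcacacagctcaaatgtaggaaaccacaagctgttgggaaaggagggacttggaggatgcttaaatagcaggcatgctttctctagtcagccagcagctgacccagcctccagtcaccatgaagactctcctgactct
C1qb promoter: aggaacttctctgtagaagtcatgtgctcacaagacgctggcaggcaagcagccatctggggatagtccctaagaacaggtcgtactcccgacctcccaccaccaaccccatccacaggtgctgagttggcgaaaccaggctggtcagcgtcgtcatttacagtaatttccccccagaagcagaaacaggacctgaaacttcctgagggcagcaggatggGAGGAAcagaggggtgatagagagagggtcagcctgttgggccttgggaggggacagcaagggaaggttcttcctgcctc
Trem2 promoter: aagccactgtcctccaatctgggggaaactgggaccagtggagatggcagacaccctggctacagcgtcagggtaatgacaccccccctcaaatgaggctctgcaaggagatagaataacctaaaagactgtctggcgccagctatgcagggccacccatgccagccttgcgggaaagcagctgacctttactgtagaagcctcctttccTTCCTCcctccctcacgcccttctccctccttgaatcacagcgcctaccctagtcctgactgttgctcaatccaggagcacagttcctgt
Itgam promoter: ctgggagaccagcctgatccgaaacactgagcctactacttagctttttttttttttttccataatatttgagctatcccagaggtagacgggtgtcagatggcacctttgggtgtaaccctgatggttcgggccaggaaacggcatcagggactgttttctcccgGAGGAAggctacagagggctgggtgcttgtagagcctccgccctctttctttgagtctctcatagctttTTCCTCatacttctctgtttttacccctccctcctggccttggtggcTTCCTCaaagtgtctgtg
Cybb promoter: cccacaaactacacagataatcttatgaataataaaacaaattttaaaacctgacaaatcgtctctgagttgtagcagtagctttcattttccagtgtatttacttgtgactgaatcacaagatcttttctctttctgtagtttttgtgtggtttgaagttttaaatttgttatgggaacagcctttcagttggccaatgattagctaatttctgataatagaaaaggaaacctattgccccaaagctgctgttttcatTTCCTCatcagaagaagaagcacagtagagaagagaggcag
In C1qb the match begins 30 bases before the start, in Trem2 40 bases before it and in Cybb 9 bases after it, while Itgam has matches 84 and 15 bases before and 32 bases after its start. A match in these letters is a description of the window and was not tested as a binding site.

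In the Lhcgr KO testes macrophage genes were lower. Of the 35, 9 fell (limma, Benjamini-Hochberg adjusted p under 0.05 over all genes), 0 rose and 26 did not pass the test. Those that fell were the lysozyme gene Lyz2, the folate receptor gene Folr2, the lysosomal gene Cd68, the complement gene C1qb, the oxidase gene Cybb, the co-receptor gene Ly86, the lipid receptor gene Trem2, Aif1 and the integrin gene Itgam, by between 1.54-fold and 2.92-fold. As a share, 25.7% of the macrophage genes were called lower and 0 higher, against 2.14% lower and 0.963% higher among all genes tested. At a looser adjusted threshold of 0.1, 17 of the 35 were lower, beside 3.82% of all genes. In 30 of the 35 genes both KO arrays lay below both WT arrays, which held for 22.4% of all genes. In 0 of the 35 both KO arrays lay above both WT arrays, which held for 36.8% of all genes. As the genes were chosen with earlier results known, these shares describe the set and are not a test of it.

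The median log2 fold change of the 35 genes was -0.64, beside 0.07 for all genes. A log2 fold change of -0.5 or lower was reached by 24 of the 35 and by 5.33% of all genes. The median log2 intensity of the macrophage genes was 7.91 and 7.76 on the KO arrays, against 8.39 and 8.99 on the WT arrays, while the median of all genes stayed between 7.80 and 7.83 on all 4. Fewer macrophages, less of these RNAs per macrophage and a different share of other cells cannot be told apart in whole-testis RNA, and none was tested. When either KO array was left out, 0 of the 35 genes passed the adjusted test, with 0.0802% of all genes called lower without replicate 1 and 0.105% without replicate 2. At an unadjusted p under 0.05, 20 macrophage genes were lower without KO replicate 1, beside 8.34% of all genes, and 19 without KO replicate 2, beside 6.36% of all genes. None of the 35 was higher at that threshold in either case.

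**Figure D1:**
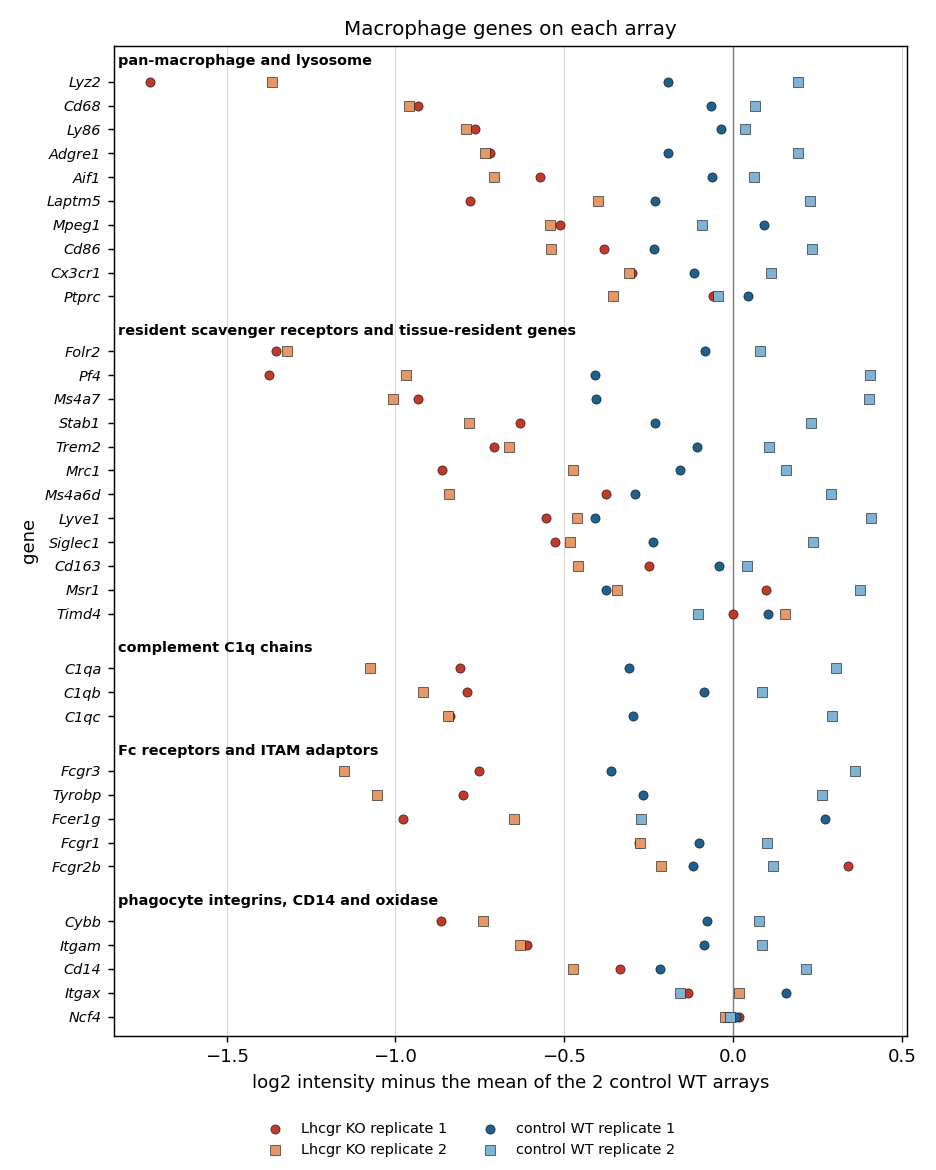
Log2 intensity of each of the 35 macrophage genes on each array, minus the mean of the 2 control WT arrays, with genes grouped by role and ordered by change. Each gene has 4 points, 2 for Lhcgr KO (red and orange) and 2 for control WT (dark and light blue), and in 30 genes both KO points lie left of both WT points.

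Among pan-macrophage and lysosomal genes, 4 of 10 fell and the KO arrays lay below the WT arrays in all 10. Lyz2, lysozyme of macrophages and granulocytes, had log2 intensities of 9.26 and 9.62 on the KO arrays, against 10.79 and 11.18 on the WT arrays. The groups were more than 1 log2 unit apart at their nearest, with a log2 fold change of -1.55 ± 0.18 (SE, n = 2 per group, limma adjusted p = 0.0109), or 2.92-fold lower with a 95% confidence interval of 2.17 to 3.94. Its near-identical paralog Lyz1, looked up after the values were seen, changed by -1.31 ± 0.14 (adjusted p = 0.00742), and probe sets of the pair may share signal.

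Cd68, a glycoprotein of lysosomes and the macrophage surface, measured 8.49 and 8.47 in KO, against 9.36 and 9.49 in WT. Both groups were tight and clearly apart, with a log2 fold change of -0.95 ± 0.11 (adjusted p = 0.0115). Ly86, the partner of the Toll-like receptor homologue CD180, stood at 8.43 and 8.41 in KO, against 9.16 and 9.23 in WT, a change of -0.78 ± 0.11 (adjusted p = 0.0191). The 4 values of Ly86 fall into a KO pair and a WT pair with little spread within either. Aif1, an actin-bundling calcium-binding protein of macrophages also called Iba1, had 6.42 and 6.28 in KO, against 6.93 and 7.05 in WT, a change of -0.64 ± 0.12 (adjusted p = 0.0443). It no longer passed without WT replicate 2, nor with 32 added or 16 subtracted before the log2 step.

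The other pan-macrophage genes did not pass. Adgre1, which encodes the surface antigen F4/80, measured 8.24 and 8.23 in KO, against 8.77 and 9.16 in WT, a log2 fold change of -0.73 ± 0.15 (adjusted p = 0.0615). Its KO arrays were almost equal and its WT arrays were not. Mpeg1, a pore-forming protein that acts on engulfed bacteria, had 9.82 and 9.79 in KO, against 10.42 and 10.24 in WT (-0.53 ± 0.12, adjusted p = 0.0754). Laptm5, a lysosomal membrane protein of blood cells, had 8.98 and 9.36 in KO, against 9.53 and 9.99 in WT (-0.59 ± 0.20, adjusted p = 0.161). In Laptm5 the spread within each group came close to the difference between groups.

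Cd86, a co-stimulatory ligand for T cells, changed by -0.46 ± 0.17 (adjusted p = 0.193). Cx3cr1, the fractalkine receptor, had a log2 difference of -0.30 ± 0.12 (adjusted p = 0.216), with 8.21 and 8.20 in KO against 8.39 and 8.62 in WT. Ptprc, the CD45 phosphatase carried by all leukocytes and not by macrophages alone, measured 7.67 and 7.38 in KO, against 7.78 and 7.69 in WT, a change of -0.21 ± 0.14 (adjusted p = 0.375). The 95% confidence interval for Ptprc runs from -0.53 to 0.12, so no change and a moderate decrease are both within it.

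Of 12 scavenger receptor and tissue-resident genes, 2 fell, and in 10 the KO arrays lay below the WT arrays. Folr2, a folate receptor of resident macrophages, had 7.61 and 7.64 in KO, against 8.88 and 9.04 in WT. With the groups over 1 log2 unit apart and close agreement within them, its log2 fold change was -1.34 ± 0.12 (adjusted p = 0.00475), or 2.52-fold lower with a 95% confidence interval of 2.08 to 3.07. Trem2, a lipid-sensing receptor that signals through the adaptor encoded by Tyrobp, had 7.57 and 7.62 in KO, against 8.17 and 8.39 in WT, a change of -0.69 ± 0.12 (adjusted p = 0.0399). It did not pass without WT replicate 2.

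Among the other resident genes, Pf4, Ms4a7 and Stab1 had larger changes than Trem2 but were not called, with WT arrays that differed from each other. Pf4, a chemokine of platelets that resident macrophages also express, had 8.08 and 8.48 in KO, against 9.04 and 9.86 in WT (-1.17 ± 0.27, adjusted p = 0.0808). Ms4a7, a tetraspan membrane protein of macrophages, had 7.59 and 7.51 in KO, against 8.11 and 8.92 in WT (-0.97 ± 0.25, adjusted p = 0.101). Both genes were lowest on the KO arrays, and their WT arrays lay 0.81 log2 units apart in each. Stab1, a scavenger receptor shared with sinusoidal and lymphatic endothelium, had 8.66 and 8.51 in KO, against 9.06 and 9.52 in WT (-0.71 ± 0.17, adjusted p = 0.0907). Mrc1, the mannose receptor CD206, had 9.66 and 10.05 in KO, against 10.36 and 10.68 in WT (-0.67 ± 0.17, adjusted p = 0.105).

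Ms4a6d, a relative of Ms4a7, had 7.91 and 7.45 in KO, against 7.998 and 8.58 in WT (-0.61 ± 0.23, adjusted p = 0.196), and KO replicate 1 nearly touched WT replicate 1. Siglec1, the sialic acid receptor CD169, had 7.35 and 7.40 in KO, against 7.64 and 8.12 in WT (-0.50 ± 0.17, adjusted p = 0.163). Lyve1, a hyaluronan receptor of some resident macrophages and of lymphatic endothelium, had 8.11 and 8.21 in KO, against 8.26 and 9.08 in WT (-0.51 ± 0.25, adjusted p = 0.270). WT replicate 1 lay close to the KO arrays in Lyve1, and the difference came from WT replicate 2. Cd163, the receptor for haptoglobin-bound haemoglobin, changed by -0.35 ± 0.12 (adjusted p = 0.174).

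Msr1 and Timd4 were the resident genes whose groups overlapped. Msr1, class A scavenger receptor, had 7.79 and 7.35 in KO, against 7.32 and 8.07 in WT, and its 95% confidence interval ran from -0.75 to 0.50. Timd4, a phosphatidylserine receptor for dying cells that marks self-renewing resident macrophages in several mouse tissues, had 6.93 and 7.09 in KO, against 7.04 and 6.83 in WT. Its log2 fold change of 0.08 ± 0.13 (adjusted p = 0.728), with an interval from -0.23 to 0.39, was the highest of the 35. Timd4 was weak, at percentile 30.1 of all genes by mean intensity, and its detection above background was not tested.

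Of the 3 chains of C1q, which together form the recognition unit of the classical complement pathway, C1qb fell, while C1qa and C1qc did not pass. C1qb had 9.94 and 9.81 in KO, against 10.64 and 10.81 in WT, and fell by 0.85 on the log2 scale (SE 0.12, adjusted p = 0.0203). C1qa had 8.20 and 7.93 in KO, against 8.70 and 9.32 in WT, a log2 fold change of -0.94 ± 0.21 (adjusted p = 0.0748). C1qc had 9.24 and 9.23 in KO, against 9.78 and 10.37 in WT, a log2 fold change of -0.84 ± 0.19 (adjusted p = 0.0800). In all 3 the KO arrays were below the WT arrays. C1qb differs from its partners in that its WT arrays were close together, at a SD of 0.12, beside 0.43 for C1qa and 0.42 for C1qc.

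None of the 5 Fc receptor and adaptor genes passed, although in 4 of them the KO arrays lay below the WT arrays (0 called by limma, 3 lower at an unadjusted p under 0.05). With all arrays, 9.78% of all genes were lower and 12.9% higher at that unadjusted threshold, which are the shares to read beside each unadjusted count of a gene group. Tyrobp, the adaptor DAP12 that carries an immunoreceptor tyrosine-based activation motif (ITAM), had 8.17 and 7.91 in KO, against 8.70 and 9.23 in WT (-0.93 ± 0.19, adjusted p = 0.0628). Fcer1g, the common gamma chain through which activating Fc receptors signal, had 9.77 and 10.10 in KO, against 11.02 and 10.47 in WT (-0.81 ± 0.20, adjusted p = 0.0981). In Fcer1g, unlike in most of the set, WT replicate 1 was the highest array. Fcgr3, the low-affinity activating IgG receptor, had 7.87 and 7.47 in KO, against 8.26 and 8.99 in WT (-0.95 ± 0.25, adjusted p = 0.107).

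Smaller values were found for the remaining receptors. Fcgr1, the high-affinity IgG receptor, had 7.15 on both KO arrays, against 7.33 and 7.53 in WT (-0.28 ± 0.12, adjusted p = 0.234). Fcgr2b, the inhibitory IgG receptor, which endothelial and B cells also express, had 10.33 and 9.77 in KO, against 9.87 and 10.10 in WT. Here the groups overlapped fully, with a log2 fold change of 0.06 ± 0.20 and a 95% confidence interval from -0.41 to 0.54. The extracellular parts of Fcgr2b and Fcgr3 are near-identical in sequence, so their probe sets may share signal.

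Of the 5 integrin, CD14 and oxidase genes, 2 fell. Cybb, the catalytic subunit of the phagocyte NADPH oxidase, had 7.64 and 7.76 in KO, against 8.43 and 8.58 in WT, a log2 fold change of -0.80 ± 0.12 (adjusted p = 0.0235). Itgam, the CD11b chain of complement receptor CR3, had 7.04 and 7.02 in KO, against 7.57 and 7.74 in WT, a change of -0.62 ± 0.12 (adjusted p = 0.0473), and did not pass without WT replicate 2. In both genes the arrays of each group were close to each other.

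Cd14, the co-receptor for bacterial lipopolysaccharide, had 7.01 and 6.87 in KO, against 7.13 and 7.56 in WT (-0.40 ± 0.16, adjusted p = 0.214). Itgax, the CD11c chain typical of dendritic cells and some macrophages, had 6.87 and 7.02 in KO, against 7.16 and 6.85 in WT (95% confidence interval -0.40 to 0.29). Ncf4, a cytosolic subunit of the oxidase that contains Cybb, measured 6.75 and 6.71 in KO, against 6.74 and 6.73 in WT, so all 4 arrays were nearly equal (interval -0.26 to 0.26). By mean intensity Ncf4 lay at percentile 23.8 of all genes and Itgax at 30.2, and detection above background was not tested.

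**Figure D2:**
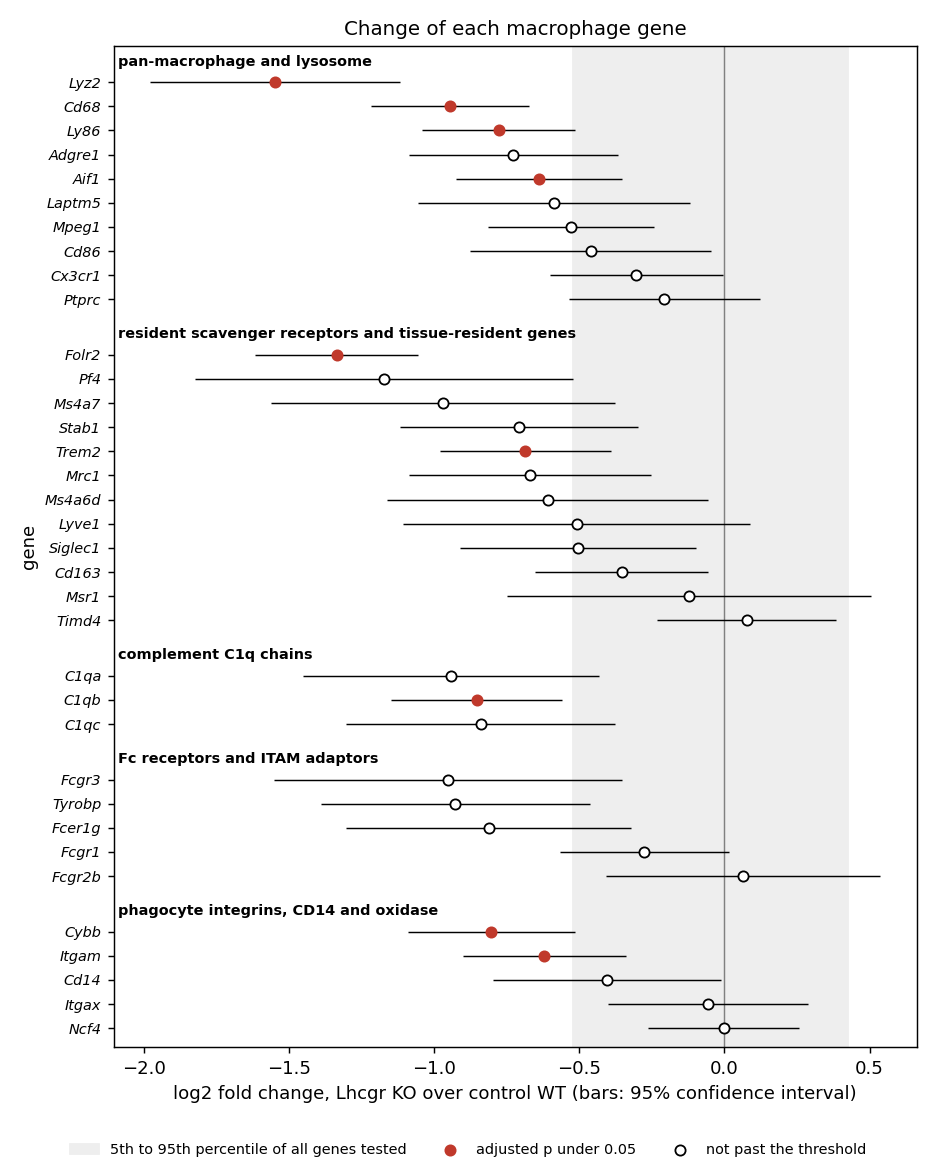
Log2 fold change of each macrophage gene, Lhcgr KO over control WT (points), with 95% confidence intervals from limma (bars) and the 5th to 95th percentile of all genes tested (grey band, -0.52 to 0.43). Filled points are the 9 genes with an adjusted p under 0.05, all left of 0, and the confidence intervals of Ptprc, Lyve1, Msr1, Timd4, Fcgr1, Fcgr2b, Itgax and Ncf4 include 0.

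The control arrays differed from each other in these genes. WT replicate 2 was higher than WT replicate 1 in 29 of the 35 genes, by a median of 0.24, whereas 42.2% of all genes were higher on that array. Between the KO arrays, replicate 2 was higher in 13 of 35, with a median difference of -0.02 and 53.4% of all genes higher. The difference between groups exceeded the difference within either group in 26 of the 35 genes and in 44.7% of all genes. Against WT replicate 2 alone the median log2 fold change of the set was -0.81, with 23 genes lower and 3.64% of all genes called lower. Against WT replicate 1 alone it was -0.53, with 7 genes lower and 2.26% of all genes called lower. With 1 WT array in a fit the spread between replicates comes from the KO pair alone, the lone array is assumed to vary like that pair, and the counts reflect this as well as the choice of control array. These 7 were Lyz2, Folr2, Cd68, Ly86, C1qb and Cybb, which were called with all arrays too, and Fcer1g, while Aif1, Itgam and Trem2 were not called.

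WT replicate 2 also carried RNA of some epididymal genes. Of 14 measured genes of the epididymis and efferent ducts, 1 (Epcam) fell with all arrays, 5 were over 1 log2 unit above every other array there, and the mean log2 intensity of the list was 6.20 and 6.23 in KO, against 6.18 on WT replicate 1 and 7.40 on WT replicate 2. WT replicate 2 was higher than WT replicate 1 in 11 of the 14, beside 42.2% of all genes, while Lcn9, Rnase9 and Rnase10 were lowest on it. Epcam was raised on both WT arrays, with 7.73 and 9.12, against 6.37 on both KO arrays. Adam7, which the epididymal epithelium makes, was the highest of the list on WT replicate 2. It stood at 5.92 and 5.68 in KO, against 5.87 on WT replicate 1 and 11.04 on WT replicate 2. Without that array, the macrophage genes had the changes given above against WT replicate 1 alone, with a median of -0.53, beside 0.05 for all genes. The part of epididymal RNA in the macrophage values was not tested. Pf4, Ms4a7, Fcgr3, Lyve1 and Msr1 depended most on the choice of control array. The change of Lyve1 was -0.92 against WT replicate 2 and -0.10 against WT replicate 1, and that of Msr1 was -0.50 against WT replicate 2 and 0.25 against WT replicate 1.

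**Figure D3:**
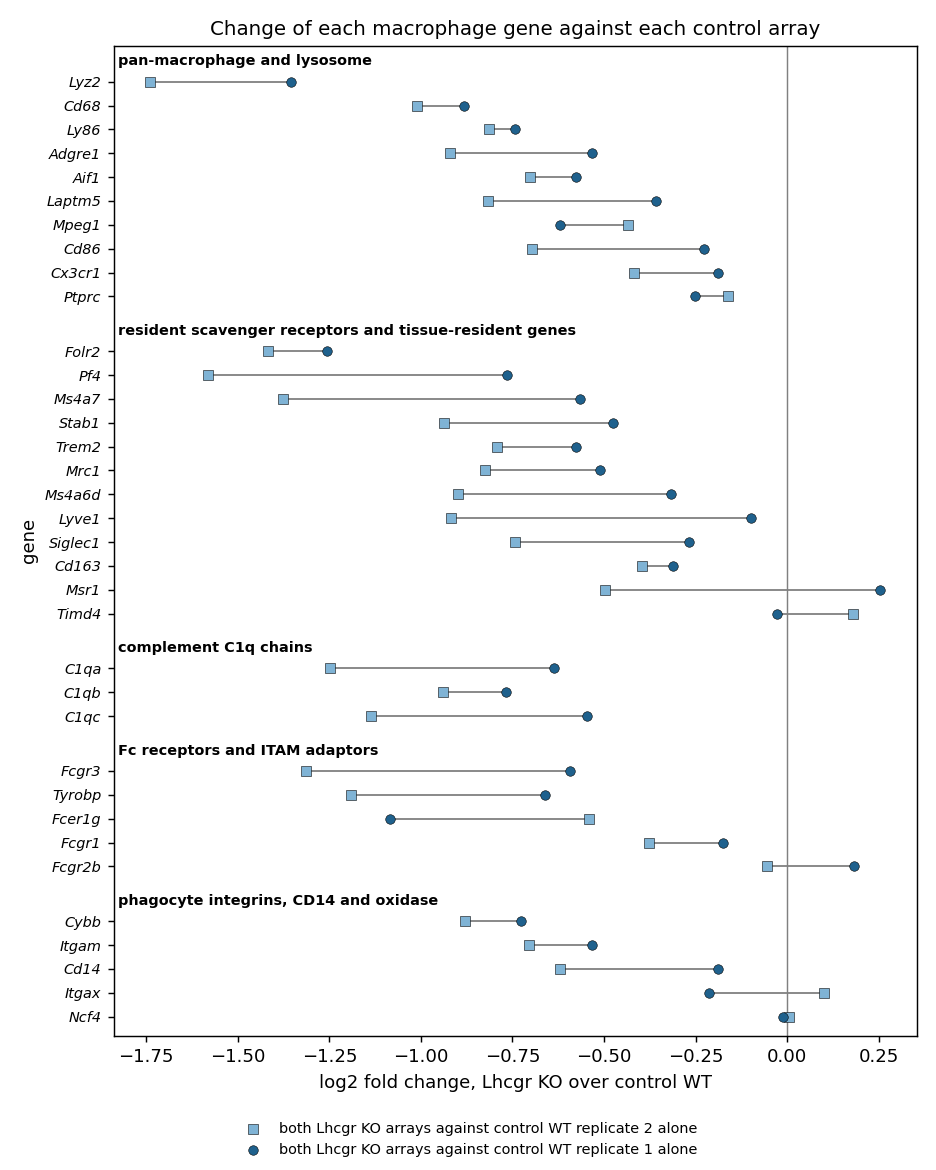
Log2 fold change of each macrophage gene for the mean of both Lhcgr KO arrays against control WT replicate 2 alone (light squares) and against control WT replicate 1 alone (dark circles), joined by a line. Most squares lie left of their circles, and the pairs of Lyve1, Pf4, Ms4a7 and Msr1 are among the widest.

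Companion genes of the macrophage programme were taken from 4 further lists. Of 30 further macrophage surface and granule genes, 4 fell, 0 rose and 26 did not pass, with a median log2 fold change of -0.36. Both KO arrays lay below both WT arrays in 22 and above them in 4, beside 22.4% and 36.8% of all genes. The count lower was 13 without WT replicate 1, 5 without WT replicate 2 and 0 without either KO array. Csf1r, the receptor for macrophage colony-stimulating factor, had 8.54 and 8.46 in KO, against 9.38 and 9.65 in WT (-1.02 ± 0.13, adjusted p = 0.0151). Vsig4, a complement receptor of resident macrophages, had 5.89 and 6.09 in KO, against 7.75 and 7.13 in WT (-1.45 ± 0.21, adjusted p = 0.0203). The sialic acid receptor gene Cd33 (-0.78 ± 0.11) and the tetraspanin gene Cd53 (-0.99 ± 0.16) fell as well, the last named after its value was seen. At an unadjusted p under 0.05, 14 of the 30 were lower, beside 9.78% of all genes. The Fc receptor gene Fcgr4 (0.26 ± 0.11, adjusted p = 0.214) was the 1 gene higher at that threshold, beside 12.9% of all genes.

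Of 11 genes of ITAM and Fc receptor signalling, 1 fell and 0 rose, with a median of -0.23. This was Fyb, an adaptor of T cells and myeloid cells, with 7.57 and 7.90 in KO, against 9.57 and 9.40 in WT (-1.75 ± 0.15, adjusted p = 0.00475). None of 11 macrophage transcription factors passed (median -0.21, 3 lower at an unadjusted p under 0.05), and neither did the 3 other oxidase genes (median -0.31, 1 lower at that p), of which Ncf1 had the lowest p (-0.37 ± 0.11, adjusted p = 0.144). Among the transcription factors, Runx1 had the lowest p (-0.76 ± 0.15, adjusted p = 0.0562). Spi1, the PU.1 gene, named for the motif search, had 7.14 and 6.95 in KO, against 7.62 and 7.96 in WT (-0.74 ± 0.15, adjusted p = 0.0604).

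Genes for antigen presentation and other leukocytes gave other values, and no difference between lists was tested. None of 5 MHC class II genes passed (median 0.16, 1 higher at an unadjusted p under 0.05), with H2-Ab1 at 0.51 ± 0.18 (adjusted p = 0.172). Of 8 dendritic cell genes, 2 rose and 0 fell (median 0.35), beside 0.963% of all genes called higher and 2.14% called lower. These were Flt3, a growth factor receptor of dendritic cell precursors, with 7.66 and 7.83 in KO against 6.98 and 7.003 in WT (0.75 ± 0.12, adjusted p = 0.0262), and the transcription factor Zbtb46 (0.63 ± 0.12, adjusted p = 0.0420), which endothelial cells also express. Without WT replicate 2, the median of the 8 dendritic cell genes was 0.36.

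Of 6 monocyte genes, Ace, which spermatids and endothelium also express, fell (-1.11 ± 0.15, adjusted p = 0.0167), and the median was -0.31. Of these 6, 2 were lower and 1, Spn, was higher (0.33 ± 0.12, adjusted p = 0.194) at an unadjusted p under 0.05. Neutrophil genes (0 of 10 called, median 0.06), mast cell genes (0 of 7, median 0.14), lymphocyte and NK cell genes (0 of 10, median 0.12) and platelet genes (0 of 4, median 0.06) did not pass in either direction. At an unadjusted p under 0.05, 2 of these neutrophil genes and 1 mast cell gene were higher, and 0 were lower, beside 12.9% of all genes higher and 9.78% lower. The genes with the lowest p were Camp for neutrophils (0.58 ± 0.11, adjusted p = 0.0521), Ms4a2 for mast cells (0.29 ± 0.12, adjusted p = 0.205), Ncr1 for lymphocytes and NK cells (0.32 ± 0.19, adjusted p = 0.328) and Gp9 for platelets (0.21 ± 0.16, adjusted p = 0.427).

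Other testis cells were read beside the macrophage genes. Of 8 adult Leydig cell genes, 6 fell, and the mean log2 intensity of the list was 7.47 and 7.31 in KO, against 11.34 and 10.13 in WT. Hsd3b6 and Ces1d, whose KO means are among the weakest 5%, were at least 81.1-fold and at least 11.05-fold lower in KO (lower ends of the 95% confidence intervals), and Star changed by -1.41 ± 0.16 (adjusted p = 0.00927). Within the WT pair this list was lower on replicate 2, where the macrophage genes were higher. Of 8 blood endothelial genes, 0 were called (1 higher and 1 lower at an unadjusted p under 0.05, median -0.02, mean log2 intensity 7.89 and 7.79 in KO, against 7.85 and 7.90 in WT). Of 5 lymphatic endothelial genes, Reln fell (-1.02 ± 0.16, adjusted p = 0.0261), and the list had a mean of 7.49 and 7.47 in KO, against 7.64 and 7.999 in WT. Of these 5, 2 were lower and 1, Pdpn, was higher (0.41 ± 0.12, adjusted p = 0.136) at an unadjusted p under 0.05. Of 9 Sertoli cell genes 1 rose and 1 fell (median 0.11), and none of 6 smooth muscle genes (median -0.28) and 6 fibroblast genes (median 0.14) was called. At an unadjusted p under 0.05, 3 smooth muscle genes were lower and 2 higher, and 1 fibroblast gene was lower and 1 higher, beside 9.78% of all genes lower and 12.9% higher. The lowest p among blood endothelial genes was that of Cdh5 (0.56 ± 0.16, adjusted p = 0.117), among smooth muscle genes that of Actg2 (-0.60 ± 0.13, adjusted p = 0.0693) and among fibroblast genes that of Lum (-0.63 ± 0.14, adjusted p = 0.0730). Trf (-2.29 ± 0.24) fell and Amh (0.80 ± 0.14) rose among the Sertoli cell genes. When either KO array was left out, 2 Leydig genes were the sole genes of all companion lists still called. The part of these cells in the macrophage values was not tested.

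The medians of most companion lists depended on single arrays. With 1 array left out at a time, that of the smooth muscle genes ran from -0.52 without KO replicate 1 to -0.04 without KO replicate 2. That of the macrophage transcription factors ran from -0.29 to -0.06 over the same arrays, and that of the monocyte genes from -0.43 without KO replicate 1 to -0.07 without WT replicate 2. The control arrays set the ends for ITAM and Fc receptor signalling (-0.33 without WT replicate 1, -0.07 without WT replicate 2) and lymphatic endothelium (-0.57 and -0.24 in that order). They did so too for MHC class II (0.27 and 0.05), lymphocyte and NK cell genes (0.18 and 0.03) and Sertoli cell genes (0.20 and 0.02). Mast cell genes ran from 0.24 without WT replicate 1 to 0.04 without KO replicate 2, and fibroblast genes from 0.17 without KO replicate 1 to 0.06 without WT replicate 1. The sign turned for neutrophil genes (0.15 without WT replicate 1, -0.05 without WT replicate 2) and epididymal genes (-0.51 and 0.16 in that order). It also turned for platelet genes (0.19 without KO replicate 1, -0.08 without KO replicate 2) and blood endothelial genes (-0.12 and 0.04 in that order). For the further macrophage genes the ends were -0.48 without WT replicate 1 and -0.26 without WT replicate 2, and for the oxidase list -0.43 and -0.31 in that order. Dendritic cell genes ran from 0.43 without WT replicate 1 to 0.34 without KO replicate 2. Leydig cell genes ran from -3.61 without WT replicate 2 to -2.49 without WT replicate 1. In these 4 lists each end stayed within 1.5 times of the median with all arrays. The number of genes called also changed without WT replicate 1 in several lists, among them transcription factors, epididymal genes, blood endothelium and fibroblasts. In that fit the spread comes from the KO pair alone.

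**Figure D4:**
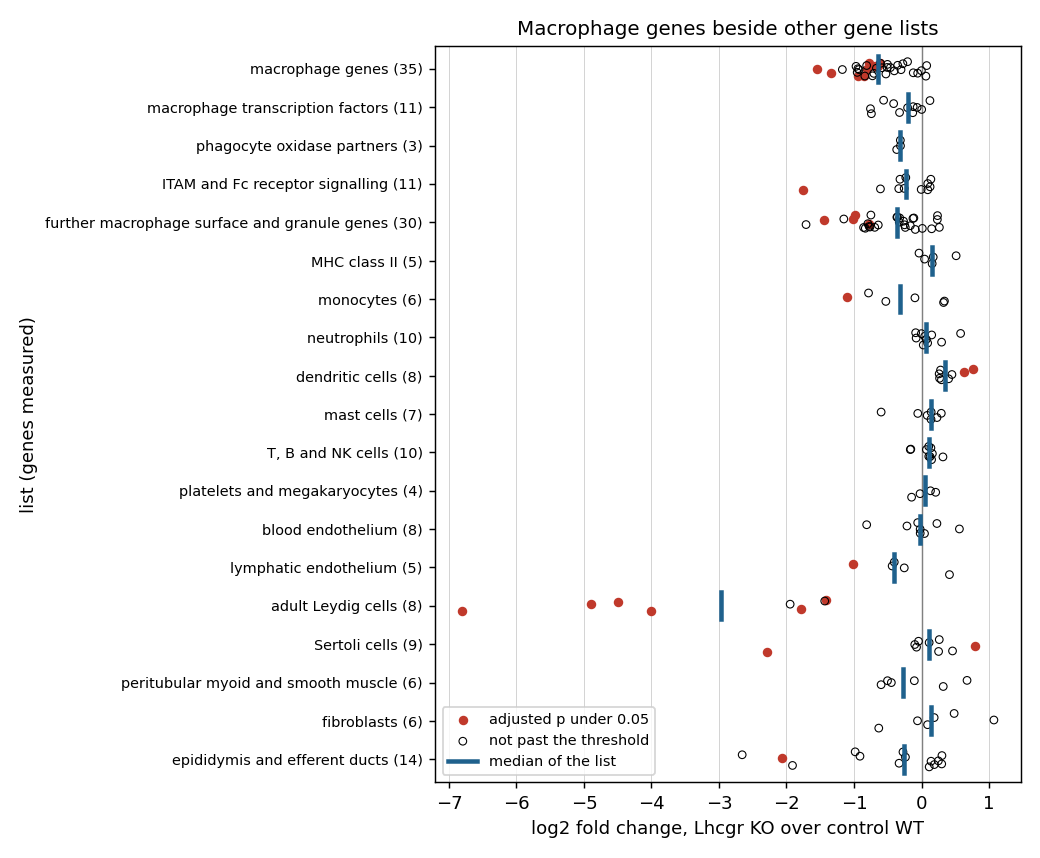
Log2 fold change, Lhcgr KO over control WT, of the 35 macrophage genes (top) and of each companion list, 1 point per gene, with the list's median as a blue bar and red points for an adjusted p under 0.05. The macrophage genes centre on -0.64, the adult Leydig cell list reaches the lowest values, and the dendritic cell list lies right of 0.

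Array medians ran from 198.3 to 215.1 intensity units, and the lowest deposited value was just over 16 on each array. None of the macrophage genes had a group mean among the weakest 5% of all group means, and the lowest was that of Aif1 in KO at 6.35 log2 units. Markers of the labelled tissue lay far above that limit on every array, with Cldn11 of Sertoli cells between 12.33 and 12.41 and Star of Leydig cells between 9.69 and 11.35 log2 units. Values of the deleted gene are not analysed here, and the genotypes are therefore taken from the labels alone. With so few arrays, the precision of each value is limited.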

How the data were processed

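Per the labels' protocols, total RNA from 4 testis samples was converted to sense-strand cDNA and hybridised to Affymetrix whole-transcript arrays. The deposited table holds 1 linear intensity per probe set and array. The submitters' processing notes name the build mm9, with no statement on how probes were summarized, background-corrected or normalized in the sources used here. Of 28856 probe sets, 21789 carry 1 gene symbol in the platform annotation, 1621 carry several and 5446 none listed, and the last 2 kinds were left out. Entrez numbers of 21698 matched RefSeq genes on GRCm38.p6 and changed 0 symbols. Each gene was taken from its probe set with the highest mean.

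Log2 intensities were fitted in limma 3.58.1 under R 4.3.3 (lmFit and eBayes, two-sided, no covariates), with Benjamini-Hochberg adjustment over 19938 genes, a threshold of 0.05 and 4.65 prior beside 2 residual degrees of freedom. No array scaling was added. The members and lists were chosen with earlier results of these data known. Every member was named; from each companion list, up to 3 genes past the threshold or the one with the lowest p. Of 176 listed companion genes, 161 were measured. The deposited values had no detection calls, so nothing was tested for being above background. The protein pattern planned for the ITAM adaptors was not searched, as no protein table was used here. Figures were drawn with matplotlib 3.10.9. The alternatives are listed in the closing section. The code was tested on simulated data.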

Additional observations from a re-analysis of the deposited data

How the results depend on the processing

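Alternatives tried were quantile normalization, median centring of the arrays, 32 added or 16 subtracted before the log2 step, the lowest 25% or 50% of genes left out, the mean of a gene's probe sets, a trended or a robust eBayes prior, a threshold of 0.1, each array left out and the replicate block. The count of macrophage genes called lower was 9 with all arrays, 17 at the threshold of 0.1, and between 0 and 23 when an array was left out. It stayed within 1.5 times of 9 under the other settings, with 6 after subtracting 16 and 12 with trend as the ends. Aif1, Itgam and Trem2 were lost after subtracting 16, while with 32 added Aif1 was lost and Adgre1 gained. The fits without the lowest 25% and 50% of genes held 32 and 23 of the macrophage genes, and 8 were lower in each. No share of all genes called was counted for these other settings, the replicate block included. The count called higher was 0 under every alternative run. The median log2 fold change of the set lay between -0.81 and -0.53 when an array was left out. Lyz2, Folr2, Cd68, Ly86, C1qb and Cybb passed under 13 of 15 alternatives, missing it when either Lhcgr KO array was left out. In those fits the spread rests on the WT pair alone.

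Titles number the replicates in both groups. Deviations of same-numbered arrays correlated at 0.02, so the numbers were not taken as pairs. With the replicate block, 7 genes were lower, of which 6 were among the 9 called without it, Aif1, Itgam and Trem2 were lost and Pf4 was gained.

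The sign turned for genes near 0. Timd4 was -0.0256 after quantile normalization, and with an array left out it ran from -0.0282 (WT replicate 2) to 0.180 (WT replicate 1), with -0.001 without KO replicate 2. Fcgr2b ran from -0.212 (KO replicate 1) to 0.341 (KO replicate 2), with -0.055 without WT replicate 1. Itgax ran from -0.214 (WT replicate 2) to 0.0993 (WT replicate 1), with 0.018 without KO replicate 1. Msr1 ran from -0.498 (WT replicate 1) to 0.253 (WT replicate 2), with 0.097 without KO replicate 2. Ncf4 ran from -0.0245 (KO replicate 1) to 0.0194 (KO replicate 2), with 0.0055 without WT replicate 1. Medians of the companion lists with an array left out were added after seeing the data. With 2 arrays per group, and with values near the floor of 16 compressed, small changes of weak genes are the least certain.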
